A study of Mus musculus with 21 samples.

Results

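This account follows 10 ligand genes of the tumor necrosis factor (TNF) superfamily in skin and lymph nodes of mice that overexpress interferon kappa in the epidermis. They were *Tnf*, *Lta* and *Ltb* (lymphotoxin α and β), *Tnfsf9* (4-1BB ligand), *Tnfsf10* (TRAIL), *Tnfsf11* (RANKL), *Tnfsf13* (APRIL), *Tnfsf13b* (BAFF), *Tnfsf14* (LIGHT) and *Cd40lg* (CD40 ligand). They were taken by name from the 55487 gene rows of each of 2 RNA sequencing tables, and all 10 were found in both. The skin table held 9 libraries from mice aged 12 months that had received no ultraviolet B (UVB): wild-type (WT) skin (n = 3), nonlesional skin of *Ifnk* transgenic (TG) mice (NL; n = 2) and lesional TG skin (L; n = 4). The node table held 12 libraries of skin-draining inguinal lymph nodes, 3 each from WT mice without UVB, TG mice without UVB, WT mice after UVB and TG mice after UVB. UVB of 310 nm was given at 250 mJ/cm2 on 3 days per week for 2 weeks, and nodes were taken after a further 2 weeks of observation. All mice were BALB/c or backcrossed to it. The *Ifnk* transgene, which encodes a type I interferon, was driven by the keratin 14 promoter, so that its product was directed to keratinocytes of the epidermis. The labels gave no mouse, body site or animal age for the node libraries and no mouse or body site for the skin libraries, so it is not known whether NL and L samples shared animals, and p-values measure only the spread between these samples. Nodes were pressed through a cell strainer before lysis, which limits them as a sample of stromal cells.

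Ligands of this family are mostly trimeric membrane proteins, several of which are cut from the cell surface, and they bind receptors that signal through TRAF or death-domain adaptors to NF-κB, MAP kinases or caspases. TNF and lymphotoxins drive inflammation, and membrane lymphotoxin, made of both lymphotoxin chains, keeps up the structure of lymph nodes through the lymphotoxin β receptor. BAFF and APRIL keep B cells and plasma cells alive, and BAFF is a drug target in lupus. CD40 ligand is made by activated CD4+ T cells and licenses B cells and dendritic cells. 4-1BB ligand and LIGHT costimulate T cells, TRAIL can induce apoptosis and is an interferon-inducible gene, and RANKL drives osteoclast formation and is also made by T cells and keratinocytes.

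*Ltb*, *Tnf* and *Lta* are neighbours. On chromosome 17 (GRCm38), *Ltb* spans 35194439 to 35196320 on the plus strand, *Tnf* 35199381 to 35202007 and *Lta* 35203165 to 35205351 on the minus strand, so that the cluster takes 10913 bases. *Tnfsf9* (17, 57105325 to 57107757) and *Tnfsf14* (17, 57189492 to 57194177) lie 81734 bases apart on the same chromosome. *Tnfsf11* lies on chromosome 14 (78277445 to 78308043), *Tnfsf13b* on 8 (10006467 to 10039072), *Tnfsf10* on 3 (27317028 to 27342427), *Tnfsf13* on 11 (69682846 to 69685784) and *Cd40lg* on X (57212143 to 57224042). All 10 are annotated as protein-coding, and their values are sums over the exons of each gene. *Tnfsf13* lies inside the readthrough gene *Tnfsfm13*, which joins it to *Tnfsf12*, and overlaps the antisense gene *Tnfsf13os*. Whether reads were counted by strand was not given in the sources used here, so values of *Tnfsf13* are uncertain.

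RefSeq promoter windows (GRCm38.p6, from 250 bases before to 50 bases after a start) were at hand for 8 of the 10 genes, in 9 windows; *Tnfsf9* and *Cd40lg* had no entry. Shown here are the windows of *Ltb* and *Tnfsf14*, which were higher in L skin than in both WT and NL skin. Also shown is that of *Tnfsf11*, which was called there too but entered the test only through the L samples. The second window of *Tnfsf13b* is given for contrast. Capitals mark matches, on either strand, to the start of an NF-κB site (GGGNNTTTC), an interferon-stimulated response element (ISRE, GAAANNGAA) or a STAT-binding GAS element (TTCNNNGAA), where N is any base.

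Ltb, chr17:35194257-35194556, plus strand: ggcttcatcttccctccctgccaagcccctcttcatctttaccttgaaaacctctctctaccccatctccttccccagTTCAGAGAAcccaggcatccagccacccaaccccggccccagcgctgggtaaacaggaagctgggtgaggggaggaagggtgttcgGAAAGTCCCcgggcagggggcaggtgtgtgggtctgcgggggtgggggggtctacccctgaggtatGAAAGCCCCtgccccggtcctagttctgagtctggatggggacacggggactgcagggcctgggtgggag

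Tnfsf14, chr17:57194132-57194431, minus strand: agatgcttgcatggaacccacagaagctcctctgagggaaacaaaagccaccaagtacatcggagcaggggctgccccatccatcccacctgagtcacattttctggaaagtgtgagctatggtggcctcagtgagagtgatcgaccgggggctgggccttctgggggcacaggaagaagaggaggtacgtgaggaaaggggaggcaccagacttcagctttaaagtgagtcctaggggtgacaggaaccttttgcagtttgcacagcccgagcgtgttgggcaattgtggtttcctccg

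Tnfsf11, chr14:78307994-78308293, minus strand: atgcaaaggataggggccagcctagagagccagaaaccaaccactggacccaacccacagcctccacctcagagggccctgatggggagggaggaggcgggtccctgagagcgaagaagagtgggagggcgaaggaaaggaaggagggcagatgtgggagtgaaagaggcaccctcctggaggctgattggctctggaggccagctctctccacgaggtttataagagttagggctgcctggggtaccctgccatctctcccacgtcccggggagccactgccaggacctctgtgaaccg

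Tnfsf13b, chr8:10006383-10006682, plus strand: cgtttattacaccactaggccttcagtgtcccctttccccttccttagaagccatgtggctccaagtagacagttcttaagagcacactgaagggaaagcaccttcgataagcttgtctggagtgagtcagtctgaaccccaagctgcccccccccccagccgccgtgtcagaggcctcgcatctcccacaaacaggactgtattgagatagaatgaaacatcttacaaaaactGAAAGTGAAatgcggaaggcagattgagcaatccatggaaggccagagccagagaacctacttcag

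The *Ltb* window held 2 NF-κB matches, which began 86 and 20 bases before the start, and 1 GAS match that began 172 bases before it. The *Tnfsf13b* window shown held 1 ISRE match that began 16 bases before the start, and the other *Tnfsf13b* window, which overlaps it, held no match. The windows of *Tnfsf14* and *Tnfsf11* held none of these letters, and neither did those of *Tnf*, *Tnfsf10* and *Tnfsf13*, while that of *Lta* held 2 GAS matches. Of all 32851 windows of this length, 4.36% held the NF-κB letters, 8.56% the ISRE letters and 8.3% the GAS letters, so the matches are a description of sequence and not of bound factors.

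Assigned counts per library ranged from 40499078 to 56511276 in skin and from 27599809 to 36428435 in nodes. After a filter on low counts, 19101 genes in skin and 16173 in nodes were tested, and all 10 ligands passed in both tissues. Keratinocyte markers summed to between 7519 and 22267 CPM, that is, counts scaled to a common library size, in each skin library and to 2.45 or less in each node library, where T cell markers summed to between 2071 and 2621. *Ifnk* itself was listed at 0 counts in the WT skin libraries and in all nodes, at 0.115 and 0 CPM in NL and at 0.11 to 0.271 CPM in L skin. The L libraries stood apart from the other skin in tissue content: skeletal muscle markers summed to between 14.9 and 5113 CPM in L and to 17575 or more elsewhere, adipocyte markers reached at most 1026 CPM in L and at least 1843 CPM elsewhere, and hair shaft keratins summed to 1216 or more in L and to 0.981 or less elsewhere. Their part in the results below was not tested.

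Per kilobase of exon, nodes without UVB from WT mice carried *Ltb* far above the rest, at 375 ± 54.9 CPM per kilobase (SD, n = 3). *Cd40lg* (28.8 ± 3.67), *Lta* (12.3 ± 0.517) and *Tnfsf10* (9.75 ± 1.02) followed, each separated from the next by more than its spread. *Tnf* (3.95 ± 0.821) and *Tnfsf14* (2.66 ± 0.701) overlapped, as did *Tnfsf13* (0.768 ± 0.413) and *Tnfsf9* (0.701 ± 0.151), with *Tnfsf11* (1.54 ± 0.2) between these pairs. *Tnfsf13b* was lowest, at 0.202 ± 0.0455 CPM per kilobase. Its exon length, 6868 bases, was the longest of the ligands, and this rank depends on the scaling by length. WT skin had another order. *Tnfsf13* (3.06 ± 1.39), *Ltb* (2.04 ± 1.14) and *Tnfsf10* (1.65 ± 0.345) led with overlapping libraries, followed by *Tnfsf9*, *Tnf*, *Lta*, *Tnfsf14* and *Tnfsf13b*, whose means fell between 0.334 and 0.712 CPM per kilobase and whose neighbours overlapped. *Cd40lg* (0.0689 ± 0.0367) and *Tnfsf11* (0.0285 ± 0.00703) were lowest and stood below the other ligands in every library. Both lay at or near a floor of 3 counts, so the order between them is not resolved. In L skin, *Ltb* stood alone at the top, at 9.37 ± 2.19 CPM per kilobase (n = 4), and from *Tnfsf13* (3.82 ± 1.08) down to *Tnfsf13b* (0.319 ± 0.214) every neighbour overlapped the next. Levels in the 2 tissues come from tables that were normalized separately and are set side by side without a test.

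**Figure D1:**
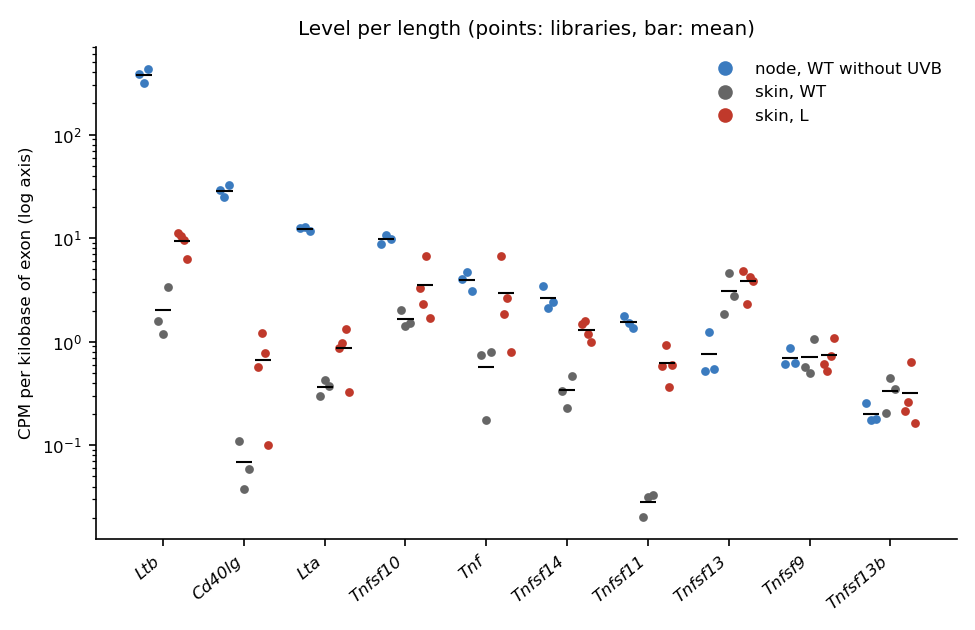
Level of each ligand in CPM per kilobase of exon (vertical log axis) in nodes of WT mice without UVB, WT skin and L skin; points are libraries and bars are means. *Ltb* is highest in nodes (mean 375) and in L skin (mean 9.37). *Tnfsf13b*, which has the longest exon length, is lowest per kilobase in nodes (mean 0.202).

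The first question was whether lesions of TG mice differ from WT skin in these ligands. Lesions exceeded WT skin in *Tnf*, *Ltb* and *Tnfsf14*, by log2 fold changes of 1.92 to 2.39, and no ligand was called lower. *Tnfsf11* and *Cd40lg* were also called, but they entered the test only through the L samples, so their values are descriptions. BAFF, in contrast, was at a like mean in L (2.19 ± 1.47 CPM, n = 4) and WT skin (2.29 ± 0.82 CPM, n = 3), and *Lta*, *Tnfsf9*, *Tnfsf10* and *Tnfsf13* did not pass the test either. DESeq2 called 7 ligands, adding *Lta* (adjusted p = 0.0436) and *Tnfsf10* (adjusted p = 0.0297), where it called 47.2% of all genes. With *Tnfsf11* and *Cd40lg* the edgeR count was 5 of 10, all higher. Of all tested genes 43.1% were called in either direction and 23% were higher. Because *Tnfsf11* and *Cd40lg* entered only through the L samples, the count of 5 is not read against these shares. Of the 8 ligands with at least 10 counts in every skin library, 3 were higher, with a median log2 fold change of 1.16. A fit of only the 15180 genes with that many counts again called 3 ligands. It called 7114 genes, 3334 of them higher, with a median of −0.01. Libraries of the L and WT groups did not overlap for *Tnf*, *Ltb* and *Tnfsf14*, which was so for 49.4% of all genes. Those of *Tnfsf11* did not overlap either, as a description. In bulk samples, fewer cells of a type and less RNA per cell cannot be told apart.

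Among the lymphotoxins and LIGHT, which share the lymphotoxin β receptor, *Ltb* measured 2.42, 1.8 and 5.07 CPM in WT samples 8, 9 and 10, 3.77 and 4 in NL samples 2 and 3, and 16.9, 16, 14.5 and 9.44 in L samples 4, 5, 6 and 7. Every L sample lay above every other skin sample. The log2 fold change of *Ltb* in L against WT skin was 2.20 (SE 0.37; adjusted p = 0.00194), and the call was kept with any single library left out and under all 6 other settings. *Tnfsf14* measured 0.616, 0.427 and 0.866 CPM in WT, 0.841 and 0.638 in NL and 2.73, 2.91, 2.18 and 1.84 in L. Again the L samples did not overlap the others, with a log2 fold change of 1.92 against WT (SE 0.33; adjusted p = 0.00207) that was likewise kept in every setting. *Lta*, whose product forms the membrane trimer with lymphotoxin β, measured 0.411 to 0.594 CPM in WT and 1.2, 1.36, 1.83 and 0.45 in L. Here L sample 7 fell within the WT range. The log2 difference of *Lta* was 1.24 (SE 0.48; adjusted p = 0.0657), and without L sample 7 it was 1.52 (adjusted p = 0.0122).

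*Tnf* measured 1.21, 0.285 and 1.31 CPM in WT samples 8, 9 and 10, 2.43 and 1.13 in NL and 10.9, 3.03, 4.3 and 1.32 in L samples 4 to 7. L sample 7 lay barely above the highest WT sample, and L sample 4 lay far above the other lesions. The log2 fold change was 2.39 (SE 0.80; adjusted p = 0.0416), and it was the least stable of the calls: without L sample 4 it was 1.62 (adjusted p = 0.0783), and the call was kept in only 2 of 9 fits with a library left out (adjusted p 0.0191 to 0.112). L sample 4 also had the highest sum of neutrophil markers, at 572 CPM against 63.3 to 141 in the other lesions and 10.2 to 20 in WT and NL skin. Its skeletal muscle markers, at 5113 CPM, were the highest of the lesions. The part of these in the *Tnf* value was not tested.

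RANKL and CD40 ligand were near the limit of detection outside lesions. Both entered the test only through the L samples, so their fitted values and p-values are descriptions. *Tnfsf11* rested on 2, 3 and 3 counts in WT, 4 and 2 in NL and 72, 85, 37 and 74 in L samples 4 to 7, or 0.0456 to 0.0742, 0.0491 to 0.0765 and 0.815 to 2.1 CPM. All lesions lay above all other samples, which were at or near the floor of 3 counts. The ratio of summed counts of *Tnfsf11* per library size in L over WT skin was 21.6 (95% exact interval 10.8 to 50.5, for counting error only), and the fitted log2 fold change was 4.39 (SE 0.49; adjusted p = 0.000347). *Cd40lg* rested on 6, 2 and 3 counts in WT, 6 and 4 in NL and 39, 61, 44 and 7 in L. L sample 7, at 0.126 CPM, fell below WT sample 8, at 0.137 CPM, while the other lesions lay between 0.71 and 1.5 CPM. The summed-count ratio of *Cd40lg* was 8.84 (4.8 to 18.1), and the fitted log2 fold change was 3.21 (SE 0.83; adjusted p = 0.0142), or 3.57 (adjusted p = 0.00187) without L sample 7. The call was lost without WT sample 9 (adjusted p = 0.0554) or WT sample 10 (adjusted p = 0.0521). T cell markers summed to 53.8, 66.7 and 69.6 CPM in L samples 4, 5 and 6, to 31.9 in L sample 7, to 28.1 to 39.8 in WT and to 35.7 to 47.7 in NL skin. L sample 7 was the lowest lesion for *Tnf*, *Lta*, *Ltb*, *Tnfsf10*, *Tnfsf13b*, *Tnfsf14* and *Cd40lg*. It was the highest lesion for *Tnfsf9* and neither highest nor lowest for *Tnfsf11* and *Tnfsf13*. Its T cell markers lay in the WT range. L sample 7 also had the lowest keratinocyte markers of any skin sample (7519 CPM, against 16182 or more in the other lesions). Its erythroid markers were the lowest too (40.9 CPM, against 294 to 934 in the other lesions). The part of these in the values was not tested.

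The B cell survival ligands and the remaining members gave no call in L against WT skin. *Tnfsf13b* measured 1.41, 3.04 and 2.42 CPM in WT samples 8, 9 and 10 and 1.47, 1.8, 4.36 and 1.14 in L samples 4 to 7. Both ranges were wide and overlapped, with L sample 6 highest of all skin samples and L sample 7 below all WT samples. The log2 difference of *Tnfsf13b* was −0.07 (SE 0.48; adjusted p = 0.926) and took the other sign in 4 of 9 fits with a library left out, and without L sample 6 it was −0.64 (adjusted p = 0.179). *Tnfsf13* measured 3.01 to 7.48 CPM in WT and 3.8 to 7.96 in L skin (log2 difference 0.32, SE 0.34; adjusted p = 0.474). *Tnfsf10* measured 7.38 to 10.8 CPM in WT and 17.2, 12.2, 35.5 and 8.86 in L, so that 3 of 4 lesions lay above WT skin. Its log2 difference was 1.08 (SE 0.44; adjusted p = 0.0787), or 1.32 (adjusted p = 0.0279) without L sample 7 and 0.56 (adjusted p = 0.13) without L sample 6. *Tnfsf9* measured 0.641 to 1.38 CPM in WT and 0.666 to 1.41 in L skin, nearly the same range (log2 difference 0.05, SE 0.40; adjusted p = 0.926). B cell markers, for scale, summed to at most 2.99 CPM in any skin library. Plasma cell markers summed to 413 to 449 CPM in WT, 579 and 605 in NL and 687 to 1141 in L skin. Of these 4 markers, 2 were called higher in L against WT skin, where 23% of all genes were. Their part in the values was not tested.

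**Figure D2:**
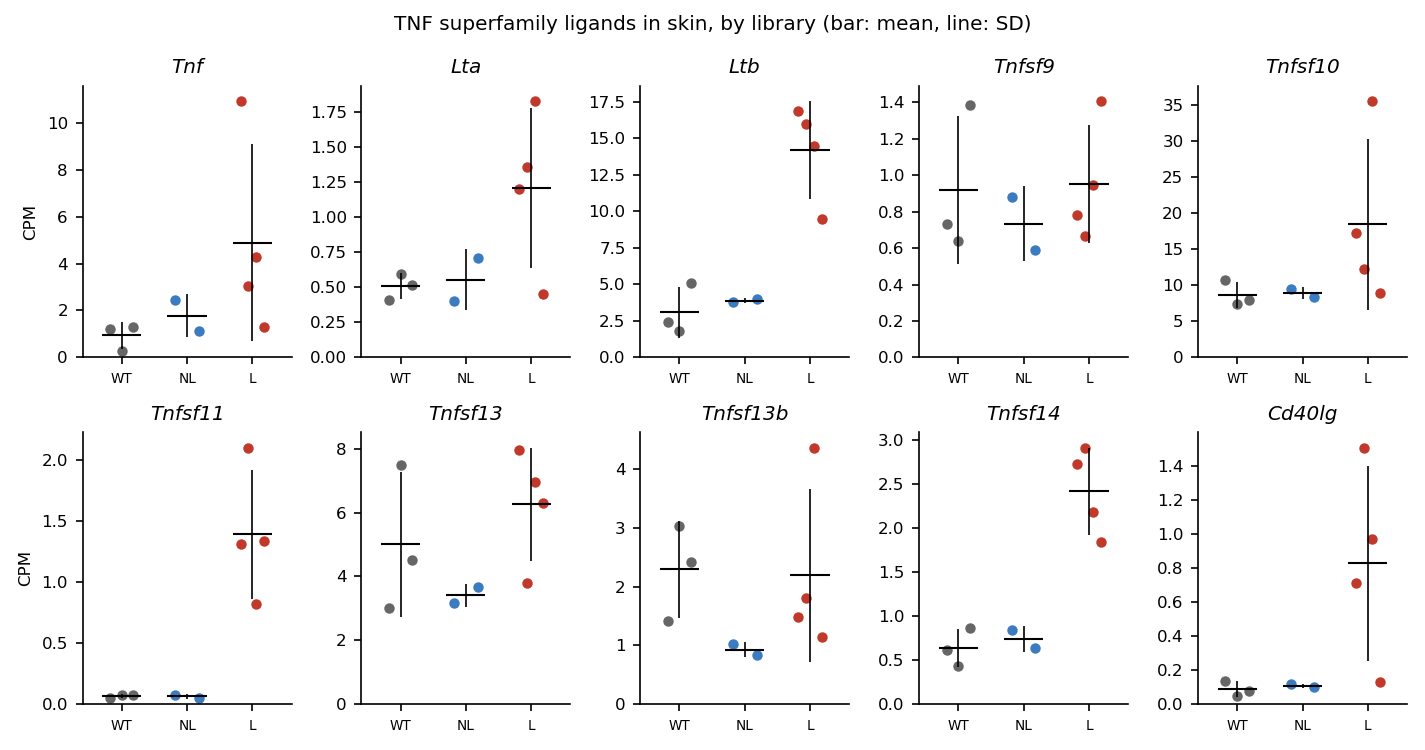
CPM of each ligand (vertical axis, from 0) in WT (n = 3), NL (n = 2) and L (n = 4) skin; points are libraries, bars are means and vertical lines are SD. L samples lie above all others for *Ltb*, *Tnfsf11* and *Tnfsf14*, while *Tnfsf13b* overlaps between L and WT.

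The second question was whether lesions differ from NL skin of TG mice. *Ltb* and *Tnfsf14* were higher in L than in NL skin. *Tnfsf11* was also called but again entered only through the L samples, and the other 7 ligands did not pass the test. With *Tnfsf11* the count was 3 of 10, all higher, and is not read against the share of all genes. Of all genes 25% were called in either direction and 13.2% were higher. Of the 8 ligands with at least 10 counts in every library, 2 were higher, with a median log2 fold change of 1.18. A fit of only the 15180 genes with that many counts again called 2 ligands. It called 4208 genes, 2026 of them higher, with a median of 0.003. The L samples are shared with the comparison above. For *Tnfsf11*, with 4 and 2 counts in NL, the summed-count ratio was 21.2 (9.6 to 58.2) and the fitted log2 fold change 4.39 (SE 0.58; adjusted p = 0.00189), as a description. The log2 fold change was 1.87 for *Ltb* (SE 0.43; adjusted p = 0.0145) and 1.70 for *Tnfsf14* (SE 0.38; adjusted p = 0.0131). Libraries of the 2 groups did not overlap for *Ltb*, *Tnfsf14*, *Tnfsf13* and *Tnfsf13b*, which was so for 49.4% of all genes. Those of *Tnfsf11* and *Cd40lg* did not overlap either, as a description. For *Cd40lg* the lowest L and highest NL samples were close, at 0.101 and 0.0917 CPM per kilobase, and rested on few counts. *Cd40lg* gave, also as a description, a log2 difference of 2.91 (SE 0.95; adjusted p = 0.0542, and 0.0106 by DESeq2, which called 4 ligands and 32.5% of all genes). For *Tnfsf13b*, both NL samples (1.01 and 0.834 CPM) lay below the lowest L sample (1.14 CPM), with a log2 difference of 1.24 (SE 0.59; adjusted p = 0.151). The remaining log2 differences ranged from 0.37 for *Tnfsf9* (adjusted p = 0.589) to 1.45 for *Tnf* (adjusted p = 0.261), with *Tnfsf13* at 0.88 (adjusted p = 0.139) and *Tnfsf10* and *Lta* between, and all 10 ligands stood above 0. With only 2 NL samples, leaving out either one ended the calls of *Ltb* (adjusted p = 0.109 and 0.103) and *Tnfsf14* (adjusted p = 0.0694 and 0.116).

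Between NL and WT skin no ligand passed the test, and 0% of all genes did. By edgeR at an unadjusted p under 0.05 the count of ligands was also 0 (7.67% of all genes), and DESeq2 called 0. The one ligand whose libraries did not overlap was *Tnfsf13b*, lower in both NL samples than in any WT sample, where 35% of all genes did not overlap. Its log2 difference was −1.31 (SE 0.61; adjusted p = 0.671). The *Tnfsf13b* mean was lowest in NL, at 0.923 ± 0.127 CPM (n = 2), with no call, and levels in WT and L overlapped. Monocyte and macrophage markers summed to 487 and 671 CPM in NL samples 2 and 3 and to 565 to 1346 in WT, with all 6 below 0 in log2 difference. The samples highest in *Tnfsf13b*, L sample 6 and WT sample 9, were also the highest in these markers (1256 and 1346 CPM). The lowest sum of these markers, 441 CPM, was in L sample 5, whose *Tnfsf13b* lay above both NL samples. The part of these markers in the *Tnfsf13b* values was not tested. This comparison shares its NL samples with that of L against NL.

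**Figure D3:**
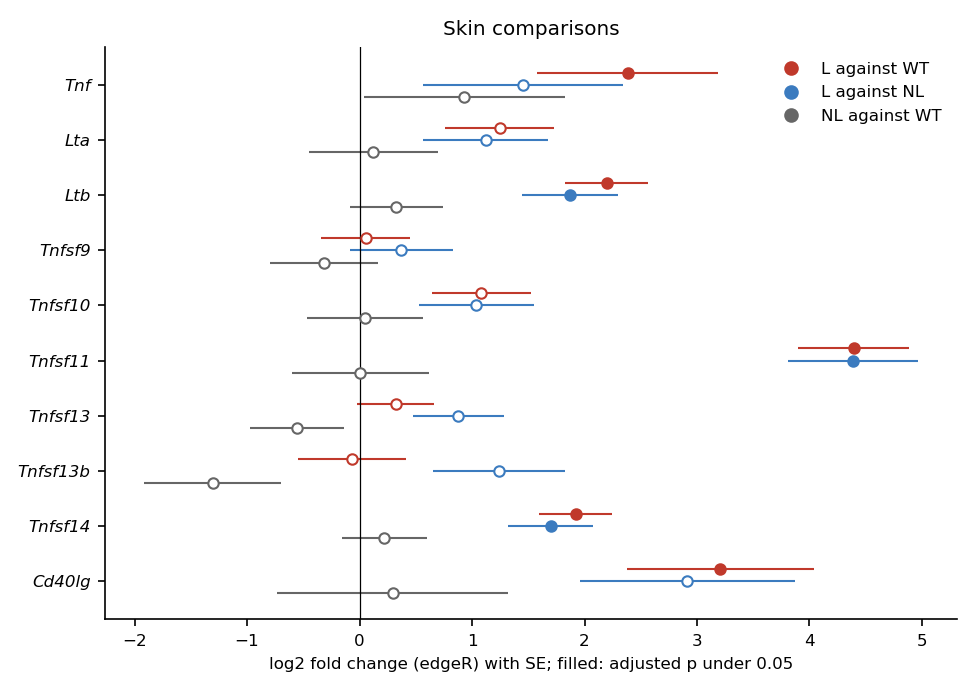
Log2 fold change with SE (horizontal axis) of each ligand in L against WT, L against NL and NL against WT skin; filled points have an adjusted p under 0.05. The 3 values of *Tnfsf11* are 4.39, 4.39 and 0.01, and those of *Tnfsf13b* are −0.07, 1.24 and −1.31.

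Among receptors of these ligands, 3 of 14 rose in L against WT skin, near the 23% of all genes that did, and none was lower, with a median log2 fold change of 0.21 (0.06 over all genes). *Tnfrsf9*, which encodes the 4-1BB receptor, measured 0.274, 0.427 and 0.173 CPM in WT and 1.78, 1.78, 4.14 and 1.64 in L skin, and did not overlap. It rose by 2.99 on the log2 scale (SE 0.49; adjusted p = 0.00169), while its ligand *Tnfsf9* did not pass the test. *Tnfrsf13c*, the BAFF receptor, measured 0.365, 0.214 and 0.173 CPM in WT and 1.02, 1.01, 1.56 and 1.84 in L. Its log2 fold change was 2.42 (SE 0.40; adjusted p = 0.00173) against WT and 0.81 (SE 0.41; adjusted p = 0.185) against NL (0.745 and 0.809 CPM). Both NL samples lay above all WT samples (1.62, SE 0.44; adjusted p = 0.503). *Cd40*, the receptor of CD40 ligand, rose by 1.20 (SE 0.39; adjusted p = 0.0337). The lymphotoxin β receptor *Ltbr* (0.07, SE 0.09; adjusted p = 0.594), the RANK gene *Tnfrsf11a* (−0.22, SE 0.17; adjusted p = 0.339) and its soluble decoy *Tnfrsf11b* (0.25, SE 0.29; adjusted p = 0.515) did not pass. The other BAFF and APRIL receptors, *Tnfrsf13b* (0.26; adjusted p = 0.425) and *Tnfrsf17* (−0.28; adjusted p = 0.733), did not pass either. In L against NL skin, *Tnfrsf9* was higher (2.10, SE 0.54; adjusted p = 0.0228) and the decoy TRAIL receptor *Tnfrsf22* was lower (−0.68, SE 0.20; adjusted p = 0.0354), out of 14.

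Downstream of the receptors, 2 of 18 adaptor and NF-κB genes rose in L against WT skin and 1 was lower. The counts in this paragraph stand against 23% of all genes higher and 43.1% called in either direction. *Traf1*, itself an NF-κB target, rose by 1.44 (SE 0.24; adjusted p = 0.0019), *Tradd* by 0.64 (SE 0.14; adjusted p = 0.00675), and *Ikbkg* fell by 0.25 (SE 0.08; adjusted p = 0.0387). Of 8 NF-κB feedback genes, *Nfkbiz* rose (1.65, SE 0.34; adjusted p = 0.00556), the deubiquitinase gene *Cyld* fell by 0.38 (SE 0.13; adjusted p = 0.046), and 6 did not pass. Of 6 genes for shedding and cleavage of the ligands, *Adam10* (0.67, SE 0.09; adjusted p = 0.000872), *Furin* (0.54, SE 0.08; adjusted p = 0.000912) and *Rhbdf2* (0.42, SE 0.13; adjusted p = 0.0283) were higher, and *Rhbdf1* fell by 0.49 (SE 0.12; adjusted p = 0.0115). Furin cuts BAFF and APRIL free, and iRhoms, encoded by the *Rhbdf* genes, guide the TNF sheddase ADAM17. Of 8 tested response genes of 10, 2 were higher. *Ccl19* measured 0.547, 0.499 and 1.48 CPM in WT and 2.31, 3.53, 7.12 and 3.59 in L skin (2.29, SE 0.53; adjusted p = 0.00839). *Cxcl2*, a neutrophil chemokine, stood at 122 CPM in L sample 4 and at 0.757 to 1.81 in the other lesions. In WT skin it stood at 0 to 0.223 CPM (adjusted p = 0.0362), which is few counts, so its call is a description. The size of its fold rests on a single lesion. Of 6 other ligands tested, *Tnfsf12* (TWEAK) fell by 0.76 (SE 0.20; adjusted p = 0.0166) and *Eda* by 0.44 (SE 0.14; adjusted p = 0.0304). In L against NL skin, *Traf1* (1.78, SE 0.29), *Tradd* (0.58, SE 0.16), *Adam10* (0.61, SE 0.11), *Furin* (0.49, SE 0.09) and *Ccl19* (2.59, SE 0.63) were higher again and *Rhbdf1* (−0.83, SE 0.13) lower, with adjusted p from 0.00383 to 0.0309, and no feedback gene or other ligand passed. Between NL and WT skin none of these listed genes passed.

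In nodes the question was whether UVB or the transgene changes the ligands. Within WT mice, no ligand passed the test after UVB, where 4.98% of all genes did. Unadjusted p-values were under 0.05 for 5 ligands and 26.3% of all genes by edgeR, and DESeq2 called 5 ligands and 12.4% of all genes. For those 5 ligands the UVB and untreated libraries did not overlap, which was so for 37.1% of all genes. *Tnf* measured 6.61, 7.75 and 5.07 CPM in WT samples 1, 2 and 3 without UVB and 9.16, 13.8 and 13.3 in samples 7, 8 and 9 after UVB (log2 difference 0.90, SE 0.30; adjusted p = 0.0896). *Tnfsf9* measured 0.785, 1.13 and 0.798 CPM without and 1.77, 5.31 and 2.02 after UVB. Irradiated sample 8 was far above the rest. The log2 difference was 1.74 (SE 0.49; adjusted p = 0.0567), and 1.07 (adjusted p = 0.278) without that sample. *Tnfsf11* measured 3.92, 3.36 and 3.04 CPM without and 6.67, 5.31 and 5.33 after UVB (0.75, SE 0.24; adjusted p = 0.0768). *Tnfsf14* measured 6.37, 3.89 and 4.48 CPM without and 6.97, 9.38 and 7.05 after UVB (0.66, SE 0.23; adjusted p = 0.0964). *Tnfsf10* lay the other way, at 45.9, 56.6 and 51.6 CPM without and 37.8, 38 and 42.8 after UVB (−0.38, SE 0.10; adjusted p = 0.0501). T cell markers summed to 2538 to 2621 CPM in untreated and 2071 to 2366 CPM in irradiated WT nodes, with no marker called. Erythroid markers (121 to 262 against 10.8 to 39.5 CPM, 3 of 5 called lower) and endothelial markers (273 to 322 against 198 to 236 CPM, 1 of 3 called lower) did not overlap either. Their part in these values was not tested. The adjusted p-values of these 5 ligands ranged from 0.0501 to 0.0964 and crossed the threshold in some other fits. With the WT groups fitted alone, *Tnf*, *Tnfsf9*, *Tnfsf10* and *Tnfsf11* passed (adjusted p from 0.0129 to 0.0267). That fit called 2431 of all genes, against 805 in the fit of all groups.

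Within TG mice, no ligand and 0% of all genes passed after UVB. By edgeR 2 ligands and 9.32% of all genes had an unadjusted p under 0.05, and DESeq2 called 0 ligands. *Tnf* measured 5.78, 6.98 and 6.86 CPM in TG samples 4, 5 and 6 without UVB and 16.8, 8.88 and 6.58 in samples 10, 11 and 12 after UVB, so that the groups overlapped (0.72, SE 0.30; adjusted p = 0.478). *Tnfsf13b* measured 1.41, 2.87 and 1.1 CPM without and 0.494, 0.661 and 1.19 after UVB. Here sample 12 overlapped the untreated range (−1.19, SE 0.43; adjusted p = 0.428). In WT nodes it stood at 1.75, 1.19 and 1.23 CPM without and 1.29, 0.691 and 0.827 after UVB (−0.56, SE 0.43; adjusted p = 0.428). TG sample 5, which had the highest *Tnfsf13b*, also had the lowest sum of B cell markers, 1049 CPM against 1493 to 2020 in the other nodes, and the highest of monocyte and macrophage markers, 539 CPM against 203 to 352. Without it the log2 difference of *Tnfsf13b* in TG nodes was −0.67 (adjusted p = 0.84), and without irradiated TG sample 12 it was −1.65 (adjusted p = 0.0761). The other values after UVB in TG nodes were 0.40 for *Tnfsf11* (SE 0.23; adjusted p = 0.619), 0.18 for *Tnfsf10* (SE 0.10; adjusted p = 0.6), 0.16 for *Tnfsf9* (SE 0.49; adjusted p = 0.949) and 0.02 for *Tnfsf14* (SE 0.23; adjusted p = 0.988). *Tnfsf13* was the 1 ligand whose TG libraries did not overlap, which was so for 13.3% of all genes. This was nearly a tie, with 1.139 CPM per kilobase in the lowest untreated and 1.137 in the highest irradiated TG library.

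The difference between these UVB effects was tested as an interaction, in which no ligand and 0% of all genes passed. By edgeR 2 ligands and 5.45% of all genes had an unadjusted p under 0.05, and DESeq2 called 0 ligands. *Tnfsf10* gave 0.56 (SE 0.14; unadjusted p = 0.00173, adjusted p = 0.848), with a negative UVB value in WT and a positive value in TG nodes. *Tnfsf9* gave −1.58 (SE 0.69; unadjusted p = 0.0393, adjusted p = 0.848).

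Averaged over both genotypes, *Tnf* and *Tnfsf11* were higher after UVB, 2 of 10 ligands, against 8.61% of all genes in either direction and 4.81% in that direction. *Tnf* was higher by 0.81 on the log2 scale (SE 0.21; adjusted p = 0.0368), or 1.75-fold, and *Tnfsf11* by 0.57 (SE 0.17; adjusted p = 0.0476), or 1.49-fold. Both calls were fragile. With a single library left out, *Tnf* kept its call in 4 of 12 fits (adjusted p 0.00378 to 0.0957) and *Tnfsf11* in 1 of 12 (0.0296 to 0.123), and without TG sample 10 the log2 fold change of *Tnf* was 0.56 (adjusted p = 0.0535). *Tnfsf13b* had the largest difference in the other direction, −0.88 (SE 0.31; adjusted p = 0.0845). It was called by DESeq2 (−0.89; adjusted p = 0.0482) and without irradiated TG sample 12 (−1.12; adjusted p = 0.0176), and it was −0.63 (adjusted p = 0.193) without untreated TG sample 5. *Tnfsf9* stood at 0.95 (SE 0.35; adjusted p = 0.0957). *Tnfsf10* stood at −0.10 (SE 0.07; adjusted p = 0.403). *Ltb*, *Lta* and *Cd40lg*, the most abundant ligands of the node per length, differed by −0.17 to 0.12 on this scale, and none passed. Erythroid markers, which summed to 121 to 303 CPM in untreated and 10.8 to 159 CPM in irradiated nodes, and fibroblast markers, at 36 to 90.2 against 11.5 to 45.8 CPM, moved with UVB, and their part in the *Tnf*, *Tnfsf11* and *Tnfsf13b* values was not tested.

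**Figure D4:**
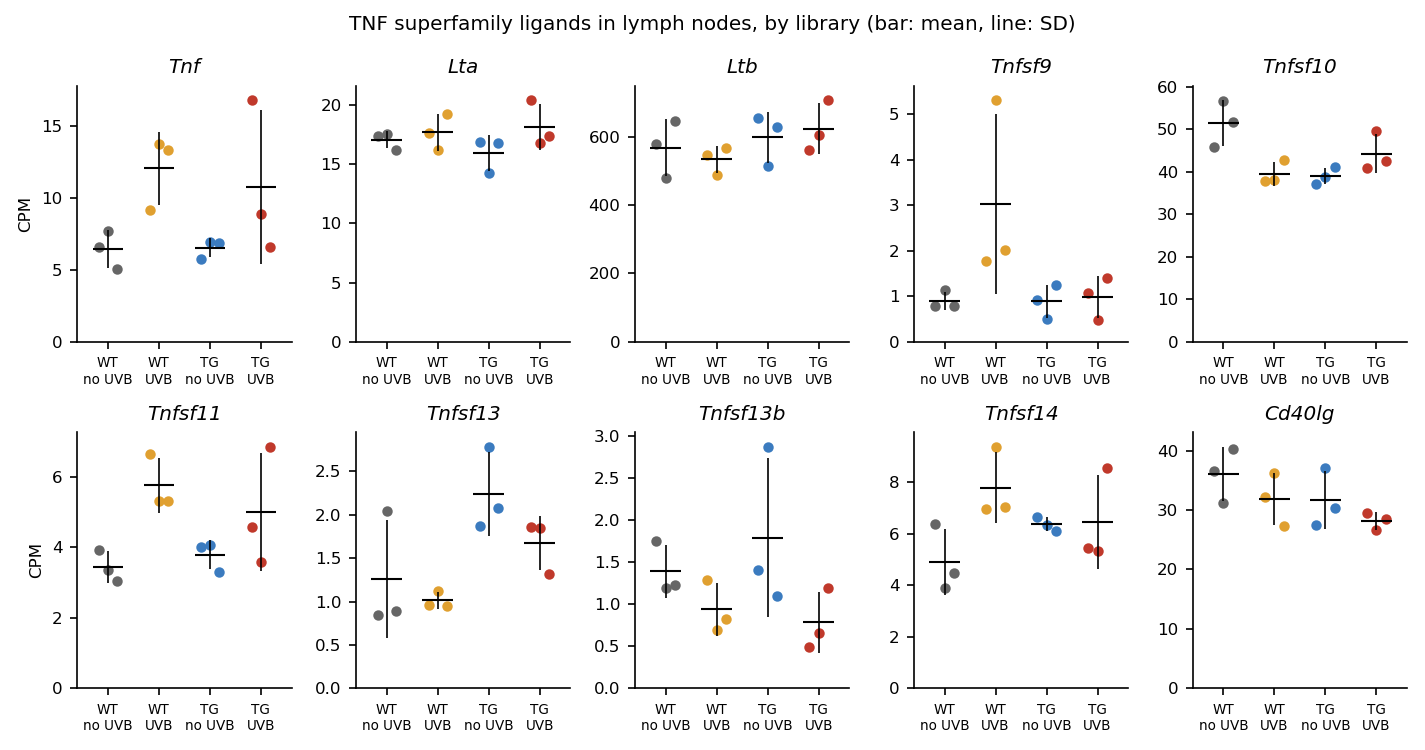
CPM of each ligand (vertical axis, from 0) in lymph nodes of WT and TG mice without and after UVB (n = 3 each); points are libraries, bars are means and vertical lines are SD. *Tnf* lies at 9.16 to 13.8 in irradiated and 5.07 to 7.75 in untreated WT nodes, and *Ltb* overlaps among all groups.

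TG and WT nodes were compared without and after UVB. No ligand and 0% of all genes passed in either comparison, and DESeq2 called 0 ligands in both. By edgeR 2 ligands without UVB and 1 after UVB had an unadjusted p under 0.05, against 3.39% and 6.99% of all genes. *Tnfsf10* was 1 of the first 2, at 37.1, 38.7 and 41 CPM in TG against 45.9 to 56.6 in WT nodes without UVB (adjusted p = 1). It was the 1 ligand without overlap there, where 10.5% of all genes did not overlap. Averaged over both treatments, no ligand passed, where 0.00618% of all genes, a single gene, did; 2 ligands and 4.66% of all genes had an unadjusted p under 0.05 and DESeq2 called 0 ligands. *Tnfsf13* gave the smallest p, at 0.78 (SE 0.25; unadjusted p = 0.00747, adjusted p = 1). Its values were 0.845, 2.04 and 0.89 CPM in WT and 1.86, 2.78 and 2.07 in TG nodes without UVB, and 0.961, 1.13 and 0.95 against 1.86, 1.84 and 1.32 after it. *Tnfsf9* was the 1 after UVB, at 1.08, 0.487 and 1.41 CPM in TG against 1.77, 5.31 and 2.02 in WT nodes (−1.60, SE 0.48; adjusted p = 0.673). After UVB, *Tnfsf9* and *Tnfsf13* did not overlap between genotypes, against 9.71% of all genes. BAFF gave no call, with a *Tnfsf13b* mean genotype value of 0.05 (SE 0.31; adjusted p = 1).

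**Figure D5:**
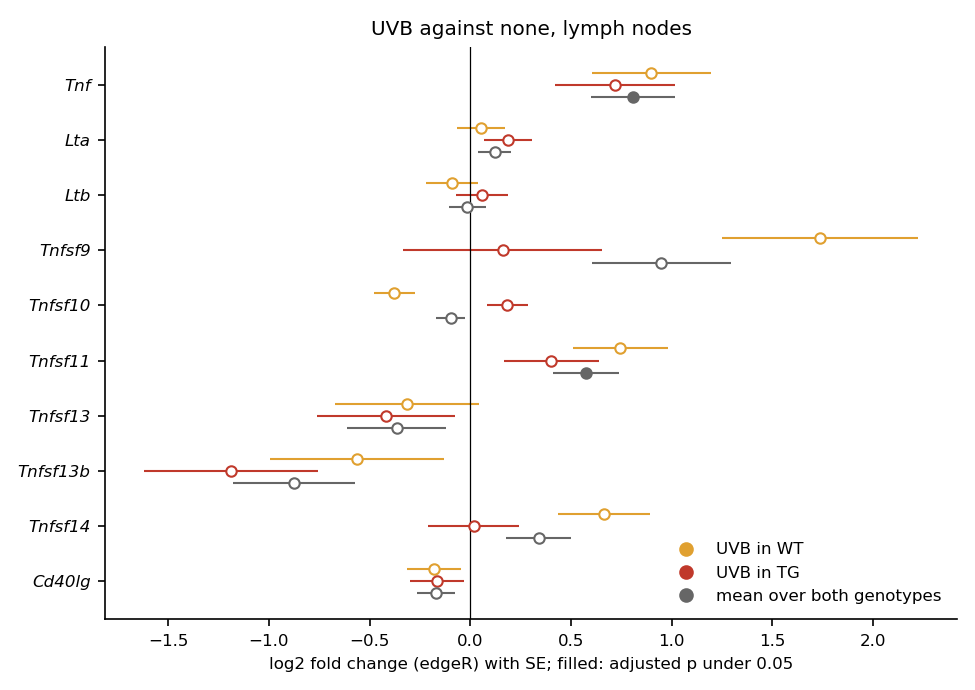
Log2 fold change with SE (horizontal axis) of each ligand after UVB against none, in WT nodes, in TG nodes and averaged over both; filled points have an adjusted p under 0.05. Filled are *Tnf* (0.81) and *Tnfsf11* (0.57) for the average, and *Tnfsf10* lies at −0.38 in WT and 0.18 in TG nodes.

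Few pathway genes passed the test in nodes. Averaged over genotypes, 1 of 12 tested receptors, *Tnfrsf22*, was higher after UVB (0.28, SE 0.08; adjusted p = 0.0459), none of 18 adaptor and NF-κB genes, 8 feedback genes or 6 shedding genes passed, and 1 of 5 other ligands, the CD30 ligand gene *Tnfsf8*, rose by 0.47 (SE 0.07; adjusted p = 0.00551). *Cxcl13*, the B cell chemokine that lymphotoxin sustains in follicles, fell by 1.75 (SE 0.31; adjusted p = 0.0146), 1 of 8 response genes. It measured 13.2 to 15.6 CPM in WT and 15.1 to 38.8 in TG nodes without UVB and 4.11 to 7.78 and 3.27 to 9.15 after it, with no overlap. Fibroblast markers, all 4 of them below 0 (median −1.14) and 1 called lower, moved with it, and their part was not tested. The counts for this average stand against 8.61% of all genes. Within WT nodes *Tnfsf8* (0.58, SE 0.10; adjusted p = 0.0166) and *Tnfrsf22* (0.43, SE 0.11; adjusted p = 0.0459) were higher and *Tnfsf12* (−1.30, SE 0.35; adjusted p = 0.0472) was lower. No listed pathway gene passed in the other 5 node comparisons.

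By Pearson's r of log2 CPM over the libraries of a tissue, the genes most like *Ltb* in skin were *Gm47316* (0.985), *Tnfsf14* (0.983) and *Tlr12* (0.983), over 9 libraries, so that another ligand ranked second among all tested genes. In the same libraries 824 genes exceeded 0.9 with *Ltb*, 43 with *Tnf* and 1 with *Tnfsf13b*. *Tnf* in skin was most like *Clcf1* (0.975), *Tmprss11g* (0.965) and *Gm10095* (0.963), and *Tnfsf13b* most like *Slc7a7* (0.909), *Dnajc3* (0.885) and *Gm15931* (0.879). Over the 12 node libraries, *Tnf* was most like *Papolg* (0.979), *Tmem62* (0.978) and *Parp3* (0.973), *Tnfsf13b* most like *Casp12* (0.953), *Trgv2* (0.938) and *Robo2* (0.931), and *Ltb* most like *Jund* (0.959), *Gng2* (0.935) and *Slc39a1* (0.916). These values describe the libraries, which share the group differences given above, and no gene was shared between the skin and node lists of the same ligand.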

How the data were processed

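Poly(A) RNA was sequenced from 9 skin and 12 lymph node libraries. The authors deposited expected counts per gene (STAR 2.7.8a, RSEM 1.3.3, build GRCm38, per the labels), which are whole numbers here, and 4 rows of construct sequences with 0 counts were left out. Groups follow the labels. Each tissue was fitted over all its groups with edgeR 4.0.16 (TMM factors, filterByExpr with a count minimum of 10, robust quasi-likelihood F-test, Benjamini-Hochberg adjustment over all tested genes, threshold 0.05) in R 4.3.3. Contrasts within a tissue share samples. SE is the absolute log2 fold change over the square root of F. CPM uses TMM-scaled library sizes, and levels between genes are per kilobase of exon in GENCODE M21, where 99.53% of rows matched. The fits were also run on simulated counts in which few genes changed. That setting is unlike L against WT skin, so the run says nothing about the calls there. Alternatives were DESeq2 1.42.0 (the study's own tool), other scaling factors, other filters, the compared groups alone and leaving out each library. Named pathway genes are, per list, those past the threshold with the largest change, up to 4, plus receptors of the members. The ligands and lists were chosen with earlier results of these data known. Intervals and floors cover counting error only. Replicate numbers are sample numbers and pair nothing.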

Additional observations from a re-analysis of the deposited data

How the results depend on the processing

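Of 1672 refitted log2 fold changes of the 10 ligands, 71 changed sign, none of them of a called value. In L against WT skin, *Tnfsf9* was −0.012214 with the compared groups alone and −0.20 to 0.47 with a library left out, and *Tnfsf13b* was −0.64 to 0.17. In TG nodes after UVB, *Tnfsf14* was −0.013439 under upper-quartile scaling and −0.26 to 0.14 with a library left out, and *Tnfsf9* was −0.19 to 0.48. In NL against WT skin, *Tnfsf11* was −0.019 under DESeq2, −0.0229 under RLE scaling, −0.0184 under upper-quartile scaling, −0.0203 with no filter and −0.35 to 0.23 with a library left out. Also with a library left out, the mean UVB effect was −0.0854 to 0.0224 for *Ltb* and the mean genotype effect −0.20 to 0.20 for *Tnfsf13b*.

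The count of ligands called in L against WT skin was 5 and became 3 with at least 10 counts in every library, a filter that *Tnfsf11* and *Cd40lg* did not pass, and 3 to 7 with a library left out (7 without L sample 7, 3 without WT sample 9 or 10). In L against NL skin it was 3 and became 1 to 5 (1 without either NL sample, 5 without L sample 7). In WT nodes after UVB it was 0 and became 5 under DESeq2, 1 under upper-quartile scaling, 1 with no filter, 2 with at least 10 counts, 4 with the compared groups alone and 0 to 5 with a library left out (5 without TG sample 12 after UVB). For the mean UVB effect it was 2 and became 3 under DESeq2, 1 under upper-quartile scaling, 0 with no filter and 0 to 2 with a library left out. No other comparison gave a call of a ligand under any setting run. Calls over all genes moved as well. In L against WT skin they were 8237 of 19101, and 7114 of 15180 with at least 10 counts in every library. With a library left out they were 6243 to 8028. In WT nodes after UVB they were 805 of 16173, and 800 under upper-quartile scaling. They were 644 of 28033 with no filter and 889 of 13380 with at least 10 counts. For the mean UVB effect they were 1393, 1369 under upper-quartile scaling and 1064 with no filter.

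Over all genes, DESeq2 called 80 for NL against WT, 2002 for UVB in WT nodes (805 by edgeR), 137 for UVB in TG nodes, 2 and 19 for TG against WT without and after UVB, 8 for the interaction, 2440 for the mean UVB effect (1393 by edgeR) and 13 for the mean genotype effect (1 by edgeR). The compared groups alone gave 3156 for L against NL (4782 in the fit of all groups), 1 for NL against WT and 2431 for UVB in WT nodes, and no filter gave 1 for TG against WT after UVB. With a library left out the counts ranged from 1182 to 5187 for L against NL, from 0 to 2644 for UVB in WT nodes (0 without irradiated WT sample 8, 2644 without irradiated TG sample 12), from 0 to 236 for UVB in TG nodes, from 0 to 1 for TG against WT without UVB, from 0 to 2 after it, from 0 to 1 for the interaction, from 373 to 3790 for the mean UVB effect and from 0 to 3 for the mean genotype effect. The cause of these changes was not tested.

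No paired analysis was possible because the numbers in the labels are running sample numbers that differ between the groups compared. Counts of 2 to 6 behind *Tnfsf11* and *Cd40lg* outside lesions limit the precision of their folds.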
